A study of Mus musculus with 48 samples.

Results

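Leukocyte adhesion molecules and selectins are the surface proteins by which circulating leukocytes are caught, held and passed across a vessel wall. The rows of the 9 genes *Icam1*, *Icam2*, *Vcam1*, *Sele*, *Selp*, *Selplg*, *Pecam1*, *Alcam* and *Mcam* were taken by symbol from a table of 24973 genes, and each symbol gave 1 row. Their levels were described in 8 groups, the ipsilateral (ischemic) and contralateral (control) hemispheres of 4 cell types of the neurovascular unit (NVU): endothelial cells, pericytes, astrocytes and microglia. The change after stroke was then tested in each cell type.

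The animals were male wild-type C57BL/6 mice of 12 to 15 weeks. All of them had undergone transient occlusion of the right middle cerebral artery for 1 h, followed by 23 h of reperfusion, so the control tissue was the other hemisphere of the same operated mice and not a sham brain. Each of the 6 replicates per group was a pool of 3 to 4 mice. By the paper, both hemispheres and the 4 cell types were taken from the same pooled mice. Libraries with the same replicate number were taken here as 1 pool, which the labels do not state. Cells were sorted by flow cytometry: microglia as CD45low/CD11b+ cells, and the other cell types from the CD45- gate, as ACSA2high cells (astrocytes), VE-cadherin+ cells (endothelial cells) and NG2/PDGFRβ double positive cells (pericytes). None of the 9 genes encodes an antigen used in the sort.

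In the textbook sequence, the selectins of activated endothelium and platelets slow leukocytes by binding sialylated, fucosylated glycans on PSGL-1, the product of *Selplg*. Leukocyte integrins then bind ICAM-1, ICAM-2 and VCAM-1, and PECAM-1 and other junctional proteins take part in the passage between endothelial cells. P-selectin is stored in Weibel-Palade bodies, whereas E-selectin and much of ICAM-1 and VCAM-1 are made after stimulation by cytokines.

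The 48 libraries held 10549900 to 16942165 normalized counts each. The spacing of low values put 1 read at 0.524 to 2.366 normalized counts and the reads on genes at 4900000 to 20100000 per library (median 11950000), so that a floor of 3 reads stood for at most 7.1 normalized counts. Of 34 marker genes of the sorted cell types, 30 were higher in all 12 libraries of their own cell type than in any other library. The exceptions were *Kcnj8*, *Abcc9* and *Higd1b* of pericytes and *Sall1* of microglia. Smooth muscle RNA was high in the pericyte libraries, with *Acta2* at a mean of 326494 normalized counts contralaterally. For 12 ipsilateral libraries of pericytes and microglia, sample titles name the opposite cell type to the column names. The column names were used here, and the marker count above rests on them.

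The most alike pair of members lies side by side on chromosome 1. *Sele* (E-selectin, ENSMUSG00000026582) spans chr1:164048234-164057677 and *Selp* (P-selectin, ENSMUSG00000026580) chr1:164115264-164150026, both on the plus strand of GRCm38, with 57586 bases between them. Over the 48 libraries each was the other's closest match among 15003 genes (Pearson's r = 0.906 between log2 values, a description over libraries that share cell type and pool). The 250 bases before the RefSeq start site of each gene (build GRCm38.p6) are shown because the pair moved together. Capitals mark matches, searched on both strands, to the AP-1 consensus TGANTCA. In *Sele* they also mark the core promoter box with the letters TATAAA.
Sele, chr1:164047984-164048233: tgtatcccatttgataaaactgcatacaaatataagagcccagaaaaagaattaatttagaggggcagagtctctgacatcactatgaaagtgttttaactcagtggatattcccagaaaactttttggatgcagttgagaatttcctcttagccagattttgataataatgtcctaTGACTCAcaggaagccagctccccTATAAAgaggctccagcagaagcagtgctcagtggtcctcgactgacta
Selp, chr1:164115014-164115263: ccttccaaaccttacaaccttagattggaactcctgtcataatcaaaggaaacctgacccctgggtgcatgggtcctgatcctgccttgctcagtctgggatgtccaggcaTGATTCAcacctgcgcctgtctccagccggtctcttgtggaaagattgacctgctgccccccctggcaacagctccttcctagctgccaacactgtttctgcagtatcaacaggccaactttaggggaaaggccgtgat

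The AP-1 consensus, which reads alike on both strands, was matched once in each sequence, at bases -73 to -67 before the start of *Sele* and -139 to -133 before that of *Selp*, and only *Sele* of the pair held the core promoter box, at -49 to -44. Of 32851 RefSeq promoters, 6.75% held the AP-1 consensus and 12.4% the core promoter box in the same 250 bases. The NF-kappaB consensus was searched in the form GGGRNNYYCC alone (R is A or G, Y is C or T, N any base). Neither sequence held that form, which 7.25% of promoters did. Looser forms were not searched, so a lack of NF-kappaB sites was not tested. All of these are matches of letters in a window and not binding sites. Of the 9 genes, 5 had a promoter in the table (*Icam1*, *Sele*, *Selp*, *Alcam* and *Mcam*). Those of *Icam1*, *Alcam* and *Mcam* held none of the 3 motifs in the forms searched.

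E-selectin and P-selectin RNA was close to confined to endothelial libraries. In contralateral endothelial cells *Sele* was at 20 to 570 normalized counts (median 195.5) and *Selp* at 26 to 1289 (median 175). In contralateral pericytes and astrocytes both genes were at 0 in 6 of 6 libraries. Against a floor of 3 reads in the library of the group where a read was worth most, the endothelial mean of *Sele* was at least 56.8-fold higher than in pericytes and 69.4-fold higher than in astrocytes, and that of *Selp* at least 98.4-fold and 120-fold higher. In contralateral microglia, 5 of 6 libraries were at 0 for *Sele* and 5 of 6 for *Selp*, and the highest values were 5 and 1.

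*Sele* was higher in the ipsilateral endothelial library of 6 of 6 pools. It was at 338 to 1186 ipsilaterally (median 784.5), against 20 to 570 contralaterally. The groups overlapped, because the contralateral library of replicate 4 (570) lay above the ipsilateral library of replicate 1 (338). The means were 228.3 ± 194.9 and 804.2 ± 313.7 (SD, n = 6), a 3.52-fold ratio. It had a log2 fold change of 2.30 (SE 0.64) with an adjusted p of 0.14 by limma over all 13242 genes tested in endothelial cells, and did not pass the threshold. A fit in which the 2 hemispheres of a pool formed a block gave 0.0829. The rule for a call was an adjusted p of at most 0.05, a change of at least 1.5-fold, and over 10 normalized counts in each of the 6 libraries of 1 or both hemispheres. By the exact two-sided sign-flip test of 6 pairs the unadjusted p was 0.03125, the smallest that 6 pairs can give. Of the 13242 genes, 4.77% were higher in all 6 pairs. In bulk samples, fewer cells of a type and less RNA per cell cannot be told apart.

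*Selp* was likewise higher in 6 of 6 pairs of endothelial libraries. Ipsilateral values ran from 372 to 3179 (median 1406.5), against 26 to 1289 contralaterally. The contralateral libraries of replicates 3 (681) and 4 (1289) exceeded the ipsilateral ones of replicates 1, 5 and 6 (607, 374 and 372), so the groups overlapped. The means were 395.5 ± 506.9 and 1549.3 ± 1245.8 (SD, n = 6), the log2 fold change was 2.90 (SE 0.99), and it was not called (adjusted p = 0.236 by limma, 0.0667 when blocked by pool). Replicates 5 and 6 had the lowest *Selp* in both hemispheres, and their 2 contralateral libraries were at 26 and 27.

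P-selectin is also a platelet protein, and blood cell genes were present in the endothelial libraries. The sum of 8 platelet genes ranged from 91 to 869 contralaterally and 199 to 872 ipsilaterally (medians 206.5 and 534.5). Of these 8, 3 and 4 had a group median over 10, and none was at 0 throughout. The sum of 12 neutrophil genes ranged from 37 to 1853 and from 113 to 11306 (medians 399 and 2740). *Cxcr2*, *Camp*, *Ngp* and *Mpo* were at 0 in all contralateral libraries, and *Camp* and *Mpo* in all ipsilateral ones. The sum of 6 venous genes went from a median of 45514.5 to 66897 and that of 6 capillary genes from 49790 to 22707, while the median log2 fold change of the single genes was -0.1 for venous and -1.1 for capillary ones. Of the 6 venous genes only *Ackr1*, a chemokine-binding receptor, was called, and with the replicate block alone (log2 fold change 2.33, adjusted p = 0.358 and 0.0369 by limma). Its mean was 4752 ± 5115 contralaterally (140 to 13555) and 14978 ± 11479 ipsilaterally (2652 to 29228, SD, n = 6). *Vwf* of the same list had a log2 fold change of 0.02 (SE 0.33, adjusted p = 0.993 by limma). The part of these cells in the selectin values was not tested.

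Outside endothelial cells, traces of both selectins appeared on the ipsilateral side. *Sele* was at 0, 5, 0, 79, 0 and 38 in ipsilateral pericytes of replicates 1 to 6 and at 0, 18, 0, 3, 2 and 37 in astrocytes. *Selp* reached at most 24 in ipsilateral pericytes and 17 in astrocytes. As a share of the ipsilateral endothelial mean, *Sele* was at most 9.82% in pericytes and 4.6% in astrocytes, while the sum of 8 endothelial markers stood at 1.45 to 8.79% and 0.21 to 1.96% of its endothelial level in the same libraries. The median share of *Sele* was 0.311% in both cell types, below the marker medians of 2.47% and 0.926%. *Selp* failed the filter of a mean of at least 10 in pericytes, astrocytes and microglia, and *Sele* failed it in astrocytes and microglia. In pericytes *Sele* passed it through the ipsilateral group alone and was not called (adjusted p = 0.379 by limma).

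**Figure D1:**
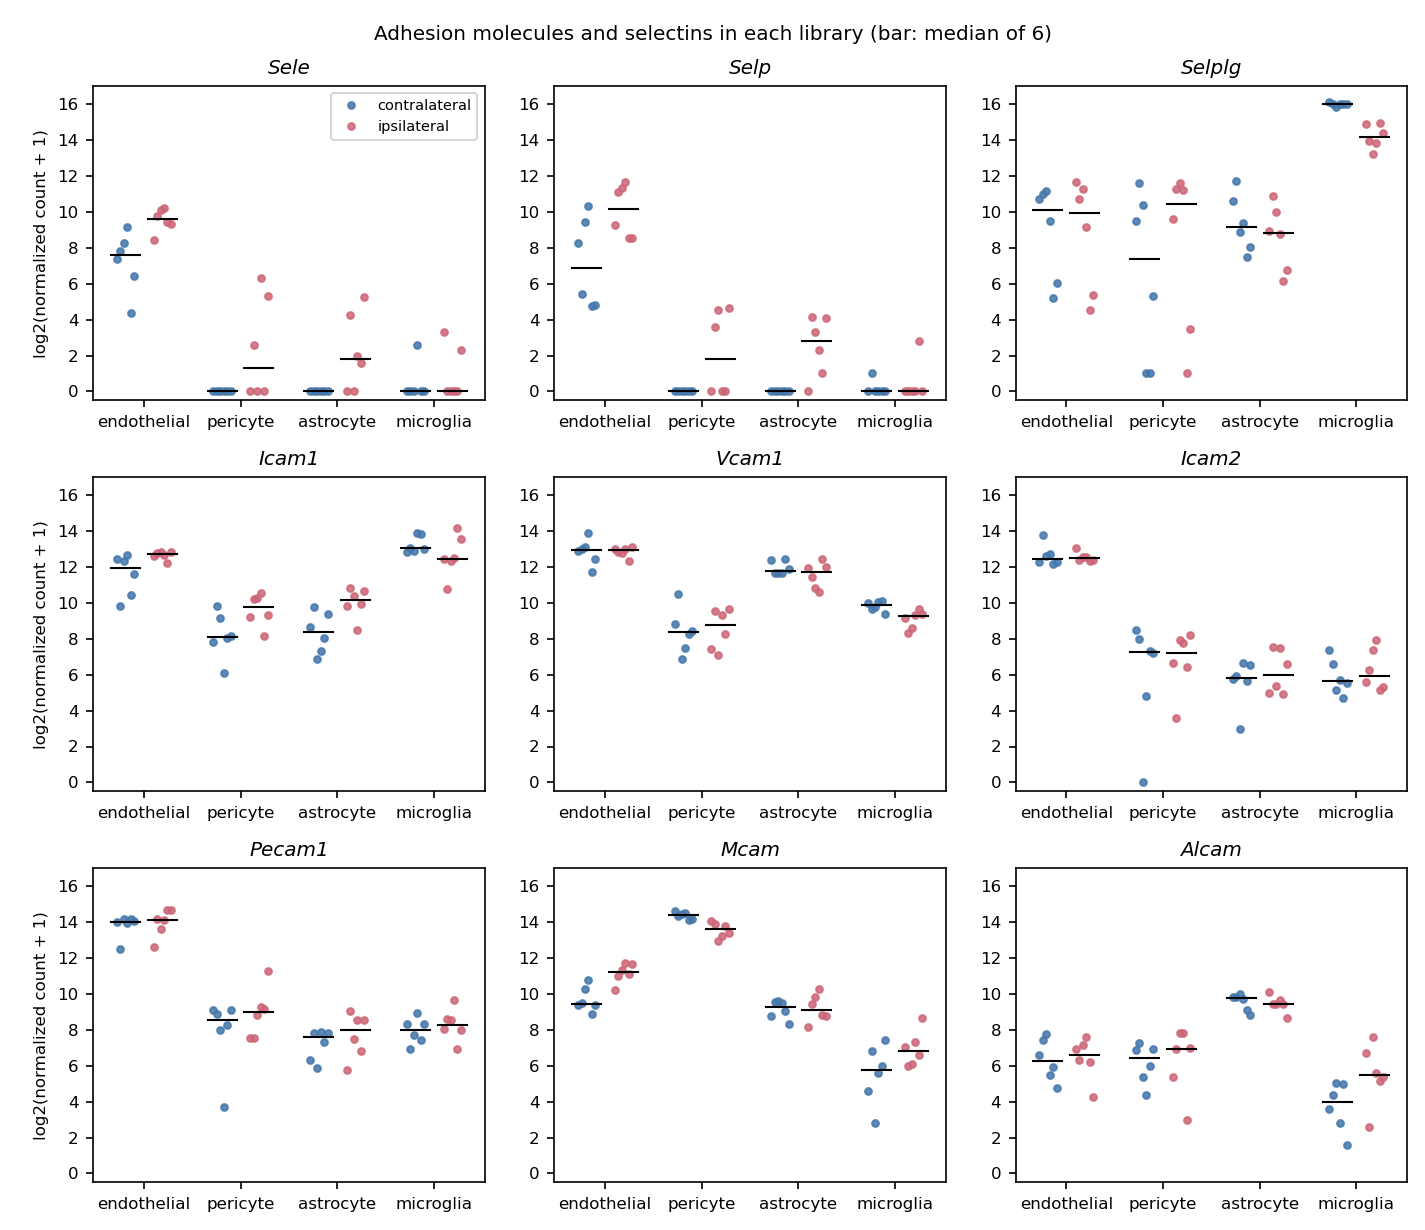
Each panel shows 1 gene, with log2(normalized count + 1) on the y axis and the 4 cell types on the x axis; each dot is 1 library, blue contralateral and red ipsilateral, and the bar is the median of 6. The selectins stand apart from 0 mainly in endothelial cells, *Selplg* is highest in microglia and *Mcam* in pericytes.

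*Selplg* (PSGL-1, ENSMUSG00000048163, chr5:113818547-113830501, minus strand) gave the clearest change of the 9 genes. It was a gene of microglia, in which it is carried as in other myeloid cells. Contralateral microglia had 57462 to 69940 normalized counts (median 65674) and ipsilateral microglia 9691 to 31927 (median 18412.5). All ipsilateral libraries lay below all contralateral ones, as did those of 4.78% of the genes tested in microglia, and the value was lower in 6 of 6 pairs, as for 13.8%. The mean fell from 64946.8 ± 4097.5 to 20633.7 ± 9082.9 (SD, n = 6), a ratio of 0.318. With a log2 fold change of -1.78 (SE 0.27) and an adjusted p of 0.00124 by limma, the gene was called downregulated.

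The fall in *Selplg* stood beside that of other microglial genes. *P2ry12* and *Tmem119*, which mark homeostatic microglia, fell by 1.76 and 1.6 on the log2 scale (adjusted p = 0.00711 and 0.0065 by limma), and the sum of 10 microglial markers went from a median of 497964 to 282497.5. Of these 10 markers, 5 were called lower, against 6.27% of all genes. The median log2 fold change of the 10 was -0.92. The gene most like *Selplg* over 48 libraries was *Siglech*, with r = 0.98, and *Siglech* fell by 1.59 (adjusted p = 0.00158 by limma). The second was *Pld4* with r = 0.972. Neutrophil genes summed to 7144 to 8521 in contralateral and 5432 to 22668 in ipsilateral microglia, and those of monocytes and macrophages to 420 to 2273 and 1870 to 5165. The contralateral neutrophil sum was carried by *Csf3r*, the receptor of a granulocyte growth factor. It fell from a mean of 6746 to 2192 (log2 fold change -1.77, adjusted p = 0.00235 by limma). The ipsilateral sums were not carried by it alone, as its mean lay below the lowest of them (5432). The highest, 22668, was that of replicate 2. Of the 10 neutrophil genes tested in microglia, 3 were called higher, *S100a8*, *S100a9* and *Retnlg*, with log2 fold changes of 3.35, 3.26 and 3.36 (adjusted p = 0.0122, 0.00356 and 0.0145 by limma). The median of the 10 was 2.05. *Ly6g* and *Mpo* were at 0 in all contralateral microglial libraries and *Mpo* in all ipsilateral ones. Whether other myeloid cells in the CD45low gate had a part in the change was not tested.

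In microglia, 2 of the 7 members tested were called, both downward, against 10.6% of all 13300 genes called in either direction and 6.27% called lower. The split of these calls depended on scaling: 570 genes were higher and 834 lower as deposited, and 790 higher and 569 lower after rescaling by trimmed means, a step that moved the median over all genes from -0.184 to -0.068 on the log2 scale. *Selplg* stayed called after that step, with a log2 fold change of -1.66 and an adjusted p of 0.00215 by limma. In a joint fit of all 48 libraries, which gives every cell type 1 shared spread, it was not called (adjusted p = 0.584 by limma).

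In the other cell types *Selplg* stood near the share of microglial markers where that was above about 1%, and mostly under it elsewhere. Its source there was not tested. In endothelial libraries of replicates 1 to 4 it stood at 1.1 to 3.48% of its microglial level contralaterally and 2.71 to 15.8% ipsilaterally, and the sum of 10 microglial markers at 1.48 to 4.61% and 2.24 to 16.1%. In replicates 5 and 6 the marker share was 0.244 to 0.265% and 0.386 to 0.404%, and that of *Selplg* 0.0554 to 0.1% and 0.107 to 0.199%. Pericyte libraries ranged from 1 normalized count of *Selplg* to 3166, and astrocyte libraries from 71 to 3358. In contralateral pericytes of replicates 4, 5 and 6 the *Selplg* share was 0.00154, 0.00154 and 0.0585%, with markers at 0.263, 0.227 and 0.265%. In ipsilateral pericytes of replicates 5 and 6 it was 0.00485 and 0.0485%, with 0.444 and 0.329%. Astrocytes of these 2 replicates had 0.274 to 0.397% contralaterally, with markers at 0.646 to 0.73%, and 0.344 to 0.523% ipsilaterally, with 0.907 to 1.01%. None of these 3 cell types showed a called change, and the spread was wide, with a log2 fold change of -0.15 (SE 1.39) in endothelial cells, 1.58 (SE 2.30) in pericytes and -0.77 (SE 0.84) in astrocytes.

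**Figure D2:**
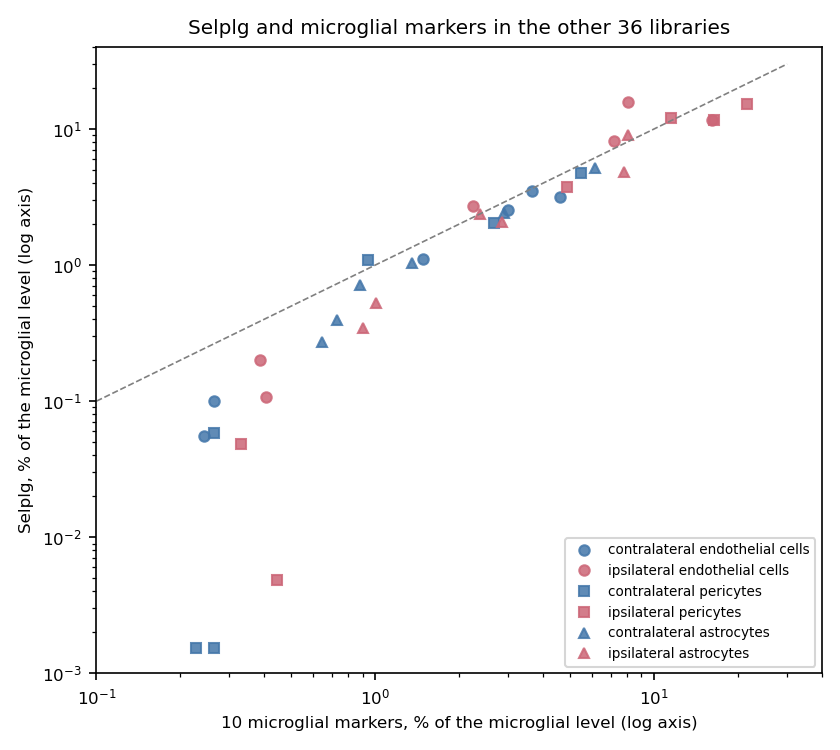
Both axes are percentages of the mean microglial level of the same hemisphere, on log scales, for the 36 libraries of endothelial cells, pericytes and astrocytes; x is the sum of 10 microglial markers, y is *Selplg*, and the dashed line marks equal shares. At marker shares above about 1% the points lie near the line, and at lower shares *Selplg* mostly falls under the line.

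*Icam1* (ENSMUSG00000037405, chr9:21015985-21028817, plus strand), the ligand of the integrins LFA-1 and Mac-1, was present in every group. In contralateral libraries it was highest in microglia (7308 to 15365, median 8409), then endothelial cells (902 to 6424, median 4126.5), astrocytes (117 to 867, median 334.5) and pericytes (66 to 915, median 274). Microglia exceeded endothelial cells by 1.70 on the log2 scale (SE 0.53, adjusted p = 0.00806 by limma), a call that was lost without replicate 5 (adjusted p = 0.0589 by limma) and in replicates 1 to 4 alone (0.128). Pericytes and astrocytes differed by 0.16, within the spread (SE 0.53, adjusted p = 0.83 by limma).

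After stroke *Icam1* was higher in 6 of 6 pairs of astrocytes, 6 of 6 of pericytes and 5 of 6 of endothelial cells, and in 2 of 6 of microglia. Ipsilateral astrocytes had 361 to 1810 normalized counts (median 1160), against 117 to 867. The groups overlapped, since the contralateral libraries of replicates 1, 2 and 6 (405, 867 and 666) lay above the ipsilateral one of replicate 4 (361). The means were 413.2 ± 298.0 and 1164.7 ± 528.4 (SD, n = 6), with a log2 fold change of 1.67 (SE 0.50) and an adjusted p of 0.275 by limma. Blocked by replicate, it was called (SE 0.29, adjusted p = 0.0238). In that blocked fit 1.25% of the 15264 genes of astrocytes were called higher, and 5.02% were higher in all 6 pairs. Without the block, 0 of the 7 members tested in astrocytes were called, against 0.341% of all genes. An unadjusted p under 0.05 by limma was reached by 1 member, and by 1416 of all 15264 genes tested.

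In ipsilateral astrocytes *Icam1* amounted to 5.6 to 28.1% of the ipsilateral endothelial mean, and in contralateral ones to 3.11 to 23.0%. The 8 endothelial markers were at 0.21 to 1.96% and 0.112 to 1.51% of theirs. Measured against microglia, ipsilateral *Icam1* was at 4.49 to 22.5% in replicates 1 to 4 and at least 12.2% in replicates 5 and 6, while the 10 microglial markers were at 2.37 to 8.05% and 0.907 to 1.01%. Neutrophil genes summed to 40 to 1659 in contralateral and 297 to 5990 in ipsilateral astrocytes, with *Ltf* at 0 in all contralateral libraries. The part of leukocyte RNA in the astrocyte values was not tested. In oligodendrocyte genes, astrocyte libraries were high in both hemispheres (median sums of 184186.5 and 167372).

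In pericytes *Icam1* ran from 287 to 1469 ipsilaterally (median 927), against 66 to 915, with a log2 fold change of 1.44 (SE 0.56, adjusted p = 0.233 by limma). Replicate 4 had the largest pair difference, from 66 to 1469. In the same pair of libraries the sum of 10 microglial markers went from 1283 to 47286 and that of 12 neutrophil genes from 7 to 8407. Ipsilateral *Icam1* stood at 7.41 to 18.3% of its microglial level in replicates 1 to 4, with the markers at 4.89 to 21.6%, and at 3.57 and 8.08% in replicates 5 and 6, with the markers at 0.444 and 0.329%. The part of microglial and leukocyte RNA in the pericyte values was not tested. Of the genes of pericytes, 4.55% were higher in all 6 pairs. In endothelial cells the ipsilateral values were narrow, 4702 to 7247 (median 6687), and the contralateral ones wide. The 3 contralateral libraries of replicates 2, 5 and 6 were at 902, 1400 and 3052, and those of replicates 1, 3 and 4 at 5201 to 6424, within the ipsilateral range. A log2 fold change of 1.09 (SE 0.43, adjusted p = 0.319 by limma) became 0.72 without replicate 2. In microglia *Icam1* was at 1738 to 18112 ipsilaterally (median 5601). It was lower in replicates 1 to 4 and higher in replicates 5 and 6, and was not called (log2 fold change -0.63, SE 0.44, adjusted p = 0.36 by limma).

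*Vcam1* (ENSMUSG00000027962, chr3:116109949-116129688, minus strand), the ligand of the integrin VLA-4, was a gene of endothelial cells and astrocytes. Contralateral medians were 7852.5 in endothelial cells (3415 to 15292), 3537 in astrocytes (3181 to 5492), 954.5 in microglia (666 to 1097) and 325 in pericytes (116 to 1421). Endothelial cells and astrocytes did not differ beyond the threshold (0.90 on the log2 scale, SE 0.41, adjusted p = 0.0641 by limma), and the other neighbours in that order did. The 8 endothelial markers were at 0.112 to 1.51% of their endothelial level in contralateral astrocytes, where *Vcam1* was at 39.2 to 67.6%.

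The called change of *Vcam1* after stroke was a fall in microglia. Ipsilateral microglia had 318 to 790 (median 607.5), and only the contralateral library of replicate 6 (666) lay among them. The mean went from 923.2 ± 166.3 to 564.3 ± 178.1 (SD, n = 6), lower in 5 of 6 pairs, with a log2 fold change of -0.76 (SE 0.23) and an adjusted p of 0.0486 by limma. The call is close to the threshold. It was lost after rescaling by median ratios or trimmed means (adjusted p = 0.0651 and 0.102 by limma), in replicates 1 to 4 alone (0.054), and without any single replicate other than the second (0.0511 to 0.167). In endothelial cells the *Vcam1* means were 8124 and 7433, the log2 fold change was 0.00 (SE 0.30), and no call was made (adjusted p = 0.999 by limma). In astrocytes it was 3303 against 4040 (log2 fold change -0.39, SE 0.30, adjusted p = 0.745 by limma), and in pericytes 465.2 against 467.8.

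*Icam2* and *Pecam1* marked endothelial cells in both hemispheres. *Icam2* (ENSMUSG00000001029, chr11:106377656-106382781, minus strand), a constitutive ligand of LFA-1, had 4549 to 14094 normalized counts in contralateral endothelial cells (median 5590) and 5143 to 8602 in ipsilateral ones (median 5662.5). *Pecam1* (ENSMUSG00000020717, chr11:106654217-106750628, minus strand), a protein of the endothelial junction, had 5823 to 18580 (median 16518) and 6181 to 26168 (median 17848.5). Neither was called in endothelial cells, with log2 fold changes of -0.09 (SE 0.27) and 0.16 (SE 0.38) and adjusted p of 0.94 and 0.917 by limma. The contralateral library of replicate 2 held the highest *Icam2* (14094) and the lowest *Pecam1* (5823) of its group. Without it the log2 fold changes were 0.17 and -0.13.

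In the other cell types *Icam2* and *Pecam1* were low, and their source there was not tested. In contralateral pericytes the median shares were 2.19% and 2.5% of the endothelial mean, with 2.11% for the 8 endothelial markers. In astrocytes they were 0.809% and 1.25%, with 0.913%, and in microglia 0.708% and 1.71%, with 0.713%, so that *Pecam1* stood above the markers in microglia. Pericytes, astrocytes and microglia were not told apart in either gene (adjusted p from 0.348 to 0.92 by limma). *Pecam1* reached 2478 in the ipsilateral pericytes of replicate 6, while the remaining 5 libraries lay between 183 and 607.

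*Mcam* (CD146, ENSMUSG00000032135, chr9:44134562-44142727, plus strand), an adhesion molecule of pericytes, smooth muscle and endothelium, was higher ipsilaterally in endothelial cells and lower in pericytes. In contralateral pericytes it was at 17340 to 25401 normalized counts (median 21557.5), against 468 to 1727 in endothelial cells (median 693.5), 316 to 767 in astrocytes (620.5) and 6 to 168 in microglia (54). Endothelial cells and astrocytes were not told apart (0.57 on the log2 scale, SE 0.46, adjusted p = 0.322 by limma).

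In endothelial cells *Mcam* was higher in 6 of 6 ipsilateral libraries than in their pairs. It ran from 1191 to 3328 (median 2401), and only the contralateral libraries of replicates 3 (1245) and 4 (1727) reached into that range. The means were 913.8 ± 476.6 and 2435.7 ± 797.2 (SD, n = 6), a 2.67-fold ratio. Its log2 fold change of 1.48 (SE 0.33) had an adjusted p of 0.0711 by limma. The blocked fit called it upregulated (SE 0.25, adjusted p = 0.039 by limma), as it did 0.378% of genes. Without the block, 0 of the 9 members were called in endothelial cells, against 0.491% of all genes. An unadjusted p under 0.05 by limma was reached by 4 members, and by 1581 of all 13242 genes tested. As a share of the pericyte mean, endothelial *Mcam* was 2.2 to 8.12% contralaterally and 9.65 to 27.0% ipsilaterally, while 8 pericyte markers stood at 0.671 to 2.81% and 0.275 to 2.22%. The part of pericyte RNA in the endothelial *Mcam* values was not tested.

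In pericytes *Mcam* was lower in 6 of 6 pairs, as were 6.86% of genes. Ipsilateral libraries had 7957 to 16841 (median 12408), all below the lowest contralateral one (17340), a separation that 1.09% of genes showed. The means were 21277.8 ± 2974.6 and 12343.0 ± 3470.8 (SD, n = 6), a ratio of 0.58, with a log2 fold change of -0.82 (SE 0.19). By limma the adjusted p was 0.063, and 0.0589 when blocked by pool, so it was not called. In pericytes 0 of the 8 members tested were called, against 1.02% of all genes. An unadjusted p under 0.05 by limma was reached by 2 members, and by 2098 of all 13597 genes tested.

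The mural genes named here also had negative log2 fold changes in the same libraries. Over 8 pericyte markers the median log2 fold change was -0.33. Over 7 fibroblast and smooth muscle genes it was -0.37, with -0.04 over all genes. No gene of either list was called without the block. *Acta2*, smooth muscle actin, had a mean of 326494 contralaterally and 176567 ipsilaterally (log2 fold change -0.92, SE 0.31, adjusted p = 0.167 by limma). *Myh11*, smooth muscle myosin, had 57451 and 21296 (-1.48, SE 0.39, adjusted p = 0.092 by limma, 0.035 in the blocked fit). The pericyte markers *Cspg4* and *Des* had -0.74 (SE 0.26) and -0.52 (SE 0.19), and *Pdgfrb* -0.14 (SE 0.42). The sum of 7 fibroblast and smooth muscle genes ranged from 308424 to 459230 contralaterally and from 143453 to 313227 ipsilaterally. The part of a smaller share of smooth muscle RNA in the *Mcam* values was not tested. *Mcam* was most like *Bcr* (r = 0.952) and *Pdlim7* (r = 0.936) over the 48 libraries.

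*Alcam* (CD166, ENSMUSG00000022636, chr16:52248996-52454074, minus strand), which binds itself and CD6, was mainly an astrocyte gene. Contralateral astrocytes had 453 to 1014 (median 858), endothelial cells 26 to 214 (77), pericytes 20 to 153 (89) and microglia 2 to 32 (15.5). Endothelial cells and pericytes were not told apart (0.18 on the log2 scale, SE 0.71, adjusted p = 0.878 by limma). No change was called in any cell type. In microglia it was higher in 5 of 6 pairs, at 5 to 189 ipsilaterally (median 43.5), with a log2 fold change of 1.75 (SE 0.83, adjusted p = 0.182 by limma). Replicate 2 was the exception, at 20 and 5, and without it the gene was called (2.47, adjusted p = 0.0373 by limma). In astrocytes, where it was highest, the means were 771.3 and 728.3 (log2 fold change -0.09, SE 0.26). *Mcam* in microglia was also higher in 5 of 6 pairs (1.42, SE 0.70, adjusted p = 0.198 by limma).

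**Figure D3:**
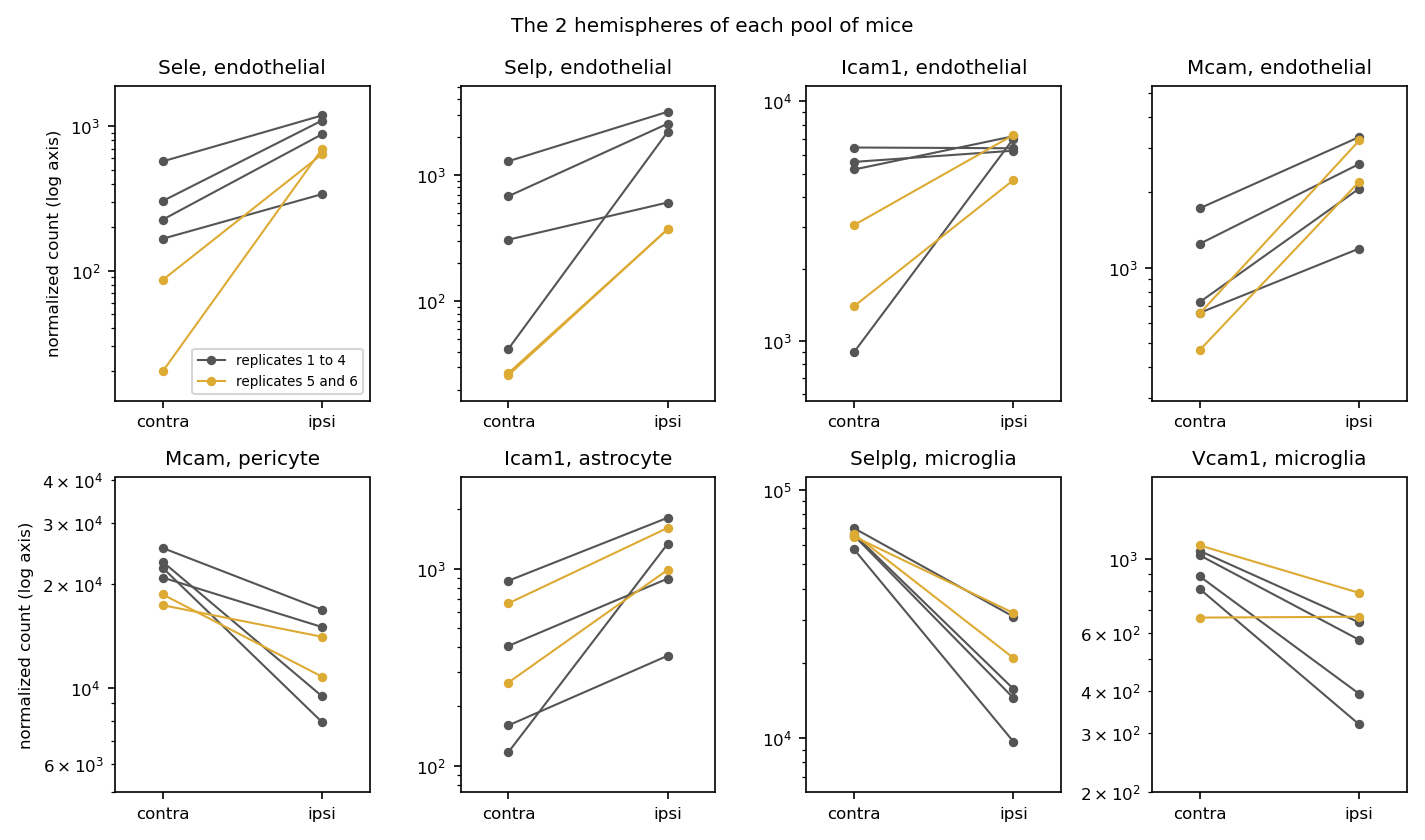
Each line joins the contralateral and ipsilateral library of 1 pool of mice, with normalized counts on log y axes that differ between panels; replicates 5 and 6 are in yellow. *Sele*, *Selp* and *Mcam* in endothelial cells and *Icam1* in astrocytes are higher on the ipsilateral side in 6 of 6 pools, *Mcam* in pericytes and *Selplg* in microglia lower in 6 of 6, and *Vcam1* in microglia lower in 5 of 6.

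Over the 4 cell types, 35 of 54 contralateral contrasts of a member between 2 cell types were called. Endothelial cells differed from pericytes in 7 of 9 members (34.6% of all 15003 genes did), from astrocytes in 6 of 9 (49.1%) and from microglia in 9 of 9 (41.6%). Pericytes differed from astrocytes in 3 of 9 (45.4%) and from microglia in 5 of 9 (48%), and astrocytes from microglia in 5 of 9 (50.7%). With the replicate block *Selplg* was also higher in astrocytes than in pericytes (2.89 on the log2 scale, adjusted p = 0.132 without it and 0.0378 with it, by limma). Per kilobase of exon, the levels in contralateral endothelial cells ran from *Icam2* (3634.5 ± 1902.7 normalized counts per kb, SD, n = 6) and *Pecam1* (2448.7 ± 763.1) through *Vcam1* (915.9) and *Icam1* (862.9) and then *Mcam* (272.8) and *Selplg* (264.3) to *Selp* (89.62), *Sele* (78.4) and *Alcam* (14.25). In microglia *Selplg* had 15202.9 per kb, in pericytes *Mcam* 6351.6, and in astrocytes *Vcam1* 455.4.

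Whether the stroke effect differs among cell types was tested in the joint fit. None of the 9 members passed (0 of 9 by limma's F test, with 0.66% of all genes called). An unadjusted p under 0.05 was reached by 2 of 9, and the share of all genes reaching it was not counted. *Mcam* had the smallest p of them (unadjusted p = 0.00202, adjusted p = 0.132 by limma), and *Icam1* the next (0.0156 and 0.298). The log2 fold change of *Mcam* was higher in endothelial cells than in pericytes by 2.31 (SE 0.66, adjusted p = 0.24 by limma). Pool by pool that difference was positive in 6 of 6, from 1.44 to 3.08 (exact two-sided sign-flip test, unadjusted p = 0.03125). Other paired differences had the same p. Endothelial cells gave it against astrocytes for *Mcam* and *Vcam1*, and against microglia for *Icam1*, *Selp* and *Selplg*. Astrocytes gave it against microglia for *Icam1*. The share of all genes with such a difference was not counted. For *Icam1*, the log2 fold change exceeded that in microglia by 2.31 in astrocytes, 2.08 in pericytes and 1.73 in endothelial cells (SE 0.75 each, adjusted p = 0.237, 0.216 and 0.384 by limma).

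**Figure D4:**
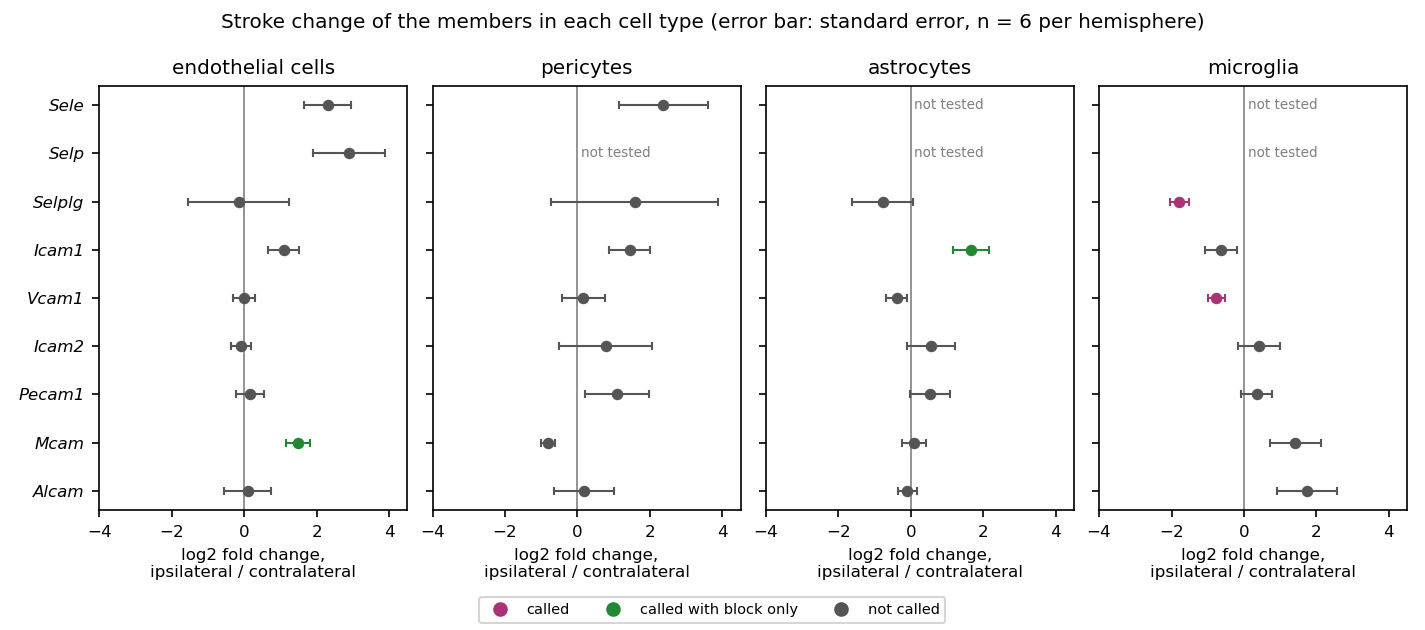
The log2 fold change (ipsilateral over contralateral) of each member is on the x axis, in 1 panel per cell type, with bars of 1 standard error (n = 6 per hemisphere). *Selplg* and *Vcam1* in microglia were called lower, *Icam1* in astrocytes and *Mcam* in endothelial cells were called with the replicate block alone, and 5 combinations were too low to test.

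Genes that act with the members were described from lists. Of 8 leukocyte integrins, the counter-receptors of ICAM-1 and VCAM-1, none was called in endothelial cells, pericytes or astrocytes. Their median log2 fold changes there were 2.04, 2.31 and 1.12 over the 7, 7 and 8 genes tested, against medians of -0.03, -0.04 and -0.06 over all genes. Of 12 neutrophil genes, the 7, 8 and 7 tested had medians of 3.17, 4.0 and 3.77. Some integrins passed the filter of a mean of at least 10 through the ipsilateral group alone, such as *Itgax* in pericytes (means of 0 and 64). In pericytes 0 of the 12 neutrophil genes had a median over 10 contralaterally, and 7 ipsilaterally. Such a filter favours positive medians. The part of neutrophil RNA in the integrin values was not tested. In microglia, where 10.6% of all genes were called, 1 of 7 was, *Itgax*, the chain of the integrin CD11c (83.8 ± 41.9 and 362 ± 191 normalized counts, SD, n = 6, log2 fold change 2.10, adjusted p = 0.0133 by limma).

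Among 28 other adhesion and diapedesis molecules, *Cd44*, a hyaluronan and osteopontin receptor that also carries selectin ligands, was called upregulated in pericytes (log2 fold change 3.01), astrocytes (2.85) and microglia (4.02), with adjusted p of 0.0447, 0.0393 and 2.08e-05 by limma. In endothelial cells it was called with the replicate block alone (3.84, adjusted p = 0.093 and 0.0468 by limma). *Pvr*, the poliovirus receptor of the nectin family, was called in endothelial cells (1.32, adjusted p = 0.0281 by limma, 0.0851 with the block). Of the 3 junctional adhesion molecules in the 4 cell types, *Jam3* fell in pericytes by 0.76 (adjusted p = 0.0374), and *F11r* and *Jam2* fell in microglia by 1.08 and 0.75 (adjusted p = 0.0471 and 0.0118 by limma), and they were not called in the remaining combinations, where values lay on both sides of 0. Also lower in microglia were *Cd34*, a sialomucin, by 0.93 and *Sirpa*, the receptor of CD47, by 0.68 (adjusted p = 0.0102 and 0.0494 by limma, the second 0.0542 with the block). Of the 23 genes of this list tested in microglia, 1 was called higher and 4 lower, where 10.6% of all genes were called. *Jam2* was the gene most like *Vcam1* over the 48 libraries (r = 0.919).

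PSGL-1 binds selectins only after glycosylation and tyrosine sulfation. Of 13 genes for the synthesis of selectin ligands, 2 of the 12 tested in microglia were called, both lower, where 6.27% of all genes were called lower. *St3gal6*, a sialyltransferase, fell by 1.23 and *Tpst2*, a tyrosylprotein sulfotransferase, by 0.95 (adjusted p = 0.00261 and 0.0102 by limma). None was called in the other 3 cell types. Their median log2 fold change in microglia was -0.39, with -0.18 over all genes.

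Among 7 cytoplasmic anchors that tie ICAMs and other adhesion molecules to actin, *Ezr* (ezrin) and *Flna* (filamin A) rose in microglia by log2 fold changes of 1.24 and 1.11 (adjusted p = 0.0208 and 0.0165 by limma). These were 2 of 7 genes tested there, where 10.6% of all genes were called. With the block *Flna* and *Msn* (moesin) were also called in astrocytes (0.79 and 1.29, adjusted p = 0.0173 and 0.0474 by limma), where 1.25% of all genes were called higher. Of 7 partners of *Alcam* and *Mcam*, 6 were tested in microglia and in pericytes. There 2 and 1 were called, against 10.6% and 1.02% of all genes. The galectin genes *Lgals1* and *Lgals3* rose in microglia (2.67 and 5.13, adjusted p = 0.0031 and 6.8e-06 by limma) and *Lgals9* in pericytes (1.89, adjusted p = 0.0311 by limma). Mean *Lgals9* went from 304 to 1196 in pericytes and from 6622 to 5563 in microglia. In ipsilateral pericytes of replicates 1 to 4, microglial markers stood at 4.89 to 21.6% of their microglial level. In replicates 5 and 6 they stood at 0.329 to 0.444%. The part of microglial RNA in these values was not tested.

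Of 4 sheddases, which cut adhesion molecules from the cell surface, *Adam8* was called upregulated in endothelial cells and microglia. In endothelial cells it had 0 to 31 normalized counts contralaterally and 18 to 4815 ipsilaterally, with a mean of 1238 (log2 fold change 7.27, SE 1.28, adjusted p = 0.0211 by limma). In microglia the means were 354 and 12134 (5.02, SE 0.41, adjusted p = 6.14e-06 by limma). *Adam8* is also a gene of myeloid cells, and its part in endothelial libraries that comes from them was not tested. In astrocytes it was called with the block alone (5.14, adjusted p = 0.149 and 0.00323 by limma). The other genes of this list were not called in any cell type. Of all genes, 0.491% were called in endothelial cells and 10.6% in microglia.

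**Figure D5:**
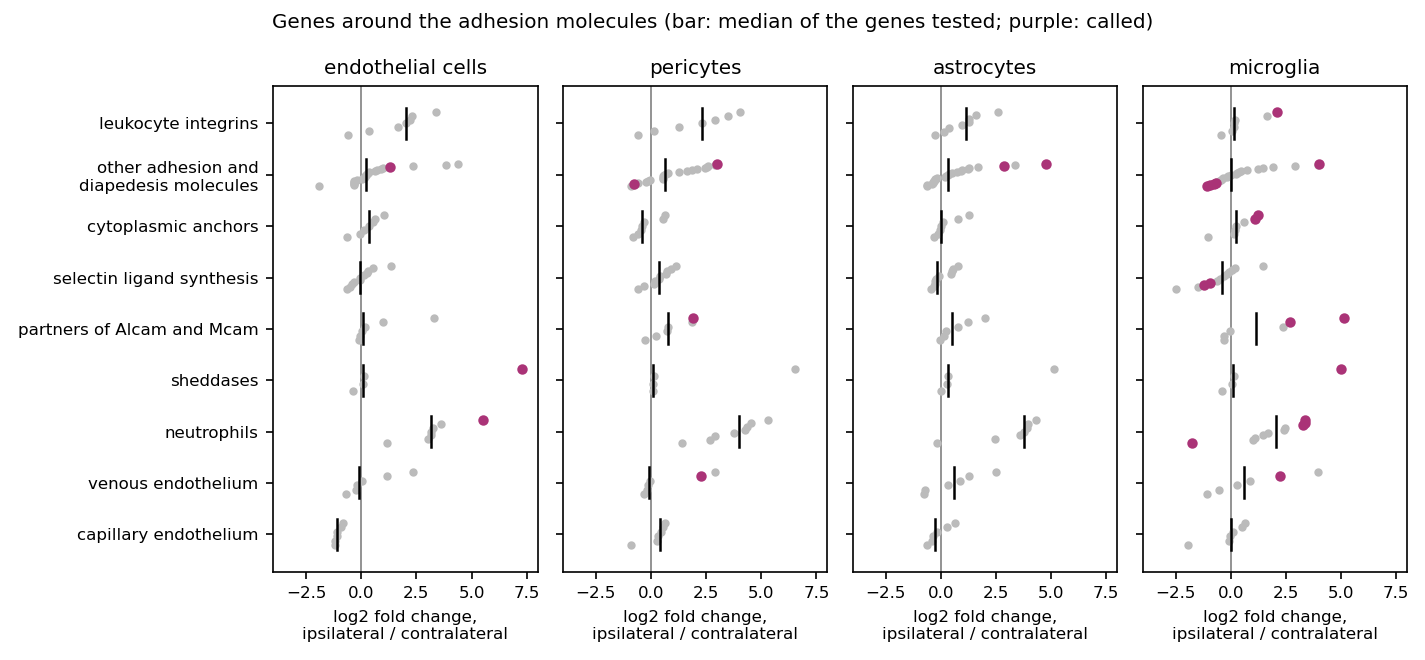
Each dot is the log2 fold change of 1 gene of a list in 1 cell type (x axis, ipsilateral over contralateral), purple where called, and the bar is the median of the genes tested. Neutrophil genes have medians of 3.17, 4.0 and 3.77 in endothelial cells, pericytes and astrocytes, over the 7, 8 and 7 of 12 that passed the filter. In contralateral pericytes 0 of the 12 had a median over 10. *Adam8* is the sheddase far to the right.

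The closest matches of the remaining members over 48 libraries were *Sh3tc1* (r = 0.889) and *Il4ra* (0.886) for *Icam1*, *Cyyr1* (0.932) and *Ly6a* (0.931) for *Icam2*, *S1pr1* (0.892, after *Jam2*) for *Vcam1*, *Egfl7* (0.954) and *Flt1* (0.944) for *Pecam1*, and *Fndc4* (0.839) and *Id4* (0.836) for *Alcam*. After each other, *Sele* was most like *Csf3* (0.886) and *Selp* most like *Gm5127* (0.874). The spans of *Icam1*, *Vcam1*, *Selp* and *Mcam* overlap genes on the opposite strand, and the library kit does not mark strand. According to the paper, a read that overlapped several genes was left out of the counts. How many reads of these members were lost in this way was not tested.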

How the data were processed

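RNA was measured in 48 libraries from pools of sorted cells (SMART-Seq HT, a kit that does not mark strand). Per the labels, the authors trimmed reads with Trimmomatic 0.38, aligned them with STAR 2.6.1d to GRCm38 and counted them with featureCounts 1.6.3. The deposited values are scores in the sense of a normalized unit: gene counts divided by DESeq2 1.18.1 size factors and rounded to whole numbers by the authors. Because rounding followed normalization, no count test was run.

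Differences were tested with limma 3.58.1 (R 4.3.3, trend) on log2(value + 1), which understates changes of low genes, among genes with a mean of at least 10 per cell type, with Benjamini-Hochberg adjustment over all genes tested. Exact tests and summaries used Python 3.11.15 with scipy 1.17.1, and the fits were tested on simulated data. Hemispheres with the same replicate number were taken to come from the same pooled mice. Deviations from the group means correlated at 0.21, 0.21, 0.37 and 0.12 on average between libraries of the same number (endothelial cells, pericytes, astrocytes, microglia) and at -0.04, -0.04, -0.07 and -0.02 between different numbers. Of the 6 pairs per cell type, 3, 4, 5 and 2 were over 0.1, and the lowest were at 0.02, -0.07, 0.02 and -0.02. The pairing thus remains an assumption of the paired results. The pooled mice are the replicate. The text names all 9 members, up to 5 called genes per pathway list and cell type (smallest adjusted p) and the 2 genes most like each member. A called gene of these lists is not reported here. Members and lists were chosen with earlier results of these data known. The alternatives were other pseudocounts, filters and scalings, a replicate block, a joint fit and leaving out replicates. Positions are those of the gene annotation, and 6 of 9 have the same ends in GENCODE M21, whose exons gave the lengths.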

Additional observations from a re-analysis of the deposited data

Results flagged for a closer look

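Of 72 groups of 6 libraries (9 genes, 8 groups each), 9 held a highest or lowest library farther from the rest than Dixon's 95% limit. Normal values pass that limit in about 1 in 20 groups. Here it was applied to normalized counts without logs, and groups made up mostly of zeros were among the 72. That rate is therefore no yardstick for the 9. In contralateral endothelial cells of replicate 2, *Icam2* was at 14094 (other libraries 4549 to 6824) and *Pecam1* at 5823 (15795 to 18580). *Icam2* was at 8602 in ipsilateral endothelial cells of replicate 1 (5143 to 6021). *Vcam1* was at 1421 in contralateral pericytes of replicate 2 (116 to 445), and *Pecam1* at 2478 in ipsilateral pericytes of replicate 6 (183 to 607). *Mcam* was at 406 in ipsilateral microglia of replicate 6 (62 to 160). The selectins gave 3 such libraries in microglia, all beside zeros: *Sele* at 5 in contralateral replicate 4, and *Selp* at 1 in contralateral replicate 2 and at 6 in ipsilateral replicate 5.

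The stroke effect on *Mcam* was opposite in every pool between endothelial cells and pericytes, a difference in log2 fold change of 2.31. In the joint fit neither that contrast nor the F test over the 4 cell types passed the threshold (adjusted p = 0.24 and 0.132 by limma).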

How the results depend on the processing

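Of the alternatives to the 31 member fold changes, 520 kept direction and side of the threshold, 14 reversed, 12 lost the call, 3 gained one and 5 moved without a test. The cause of each difference was not tested. With the replicate block, which pairs the hemispheres of a pool, 1 member was called in endothelial cells (*Mcam*) and 1 in astrocytes (*Icam1*), and no other call of a member between hemispheres changed. The unadjusted exact sign-flip test passed 3 endothelial, 2 pericyte, 1 astrocyte and 1 microglial member. With 6 pairs it can pass only where all 6 go the same way. In endothelial cells 4.77% of all genes were higher in all 6 pairs, and in astrocytes 5.02%. In pericytes 4.55% were higher and 6.86% lower in all 6, and in microglia 13.8% were lower. For microglia the 2 calls became 1 with a pseudocount of 0.1, under both rescalings, with no filter and in replicates 1 to 4 alone, and 0 in the joint fit. Leaving out single replicates gave 1 to 3 there and 0 in the other cell types.

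In replicates 1 to 4 alone, log2 fold changes near 0 turned for *Selplg* (0.11) and *Pecam1* (-0.03) in endothelial cells and *Vcam1* (-0.05) in pericytes. Without single replicates the sign also turned for *Icam2* (-0.27 to 0.17), *Pecam1* (-0.13 to 0.47) and *Alcam* (-0.32 to 0.33) in endothelial cells. The same held for *Icam2* (-0.64 to 1.82), *Vcam1* (-0.18 to 0.47), *Selplg* (-0.15 to 2.26) and *Alcam* (-0.46 to 0.82) in pericytes, and for *Alcam* (-0.17 to 0.01) and *Mcam* (-0.05 to 0.23) in astrocytes. None of these was called.

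Counts over all genes moved more. Endothelial cells had 65 calls, 235 in the joint fit, 11 in replicates 1 to 4 and 10 to 84 without single replicates. Pericytes had 139, with 226 under the block, 288 jointly, 35 with no filter, 31 in replicates 1 to 4 and 11 to 112 without single replicates. Astrocytes had 52, with 34 at a pseudocount of 0.1, 242 under the block, 89 jointly, 17 with no filter, 32 at a mean of at least 50 and 12 to 61 without single replicates. Microglia had 1404, with 827 jointly, 893 with no filter, 787 in replicates 1 to 4 and 557 to 1909 without single replicates. At most 7.1 normalized counts stood for 3 reads, which limits the selectin values outside endothelial cells.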
